A study of Neurospora crassa with 19 samples.

Results

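The genes nmt-1 (NCU09345) and NCU06110 stand for the 2 branches of thiamine (vitamin B1) synthesis in the filamentous fungus Neurospora crassa, nmt-1 for the pyrimidine branch and NCU06110 for the thiazole branch. They were chosen by locus from the 9730 genes counted, because both were already known to be among the most abundant transcripts in these libraries. Their levels, shares of the library and ratio to each other are therefore given as a description, with no test. The gene table gives nmt-1 its symbol, while NCU06110 carries only its locus number there and its branch is taken from the working description of the pair.

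The series examined the chromatin gene dim-1 (NCU06484) in 19 samples, of which 2 were poly-A RNA libraries of N5801, a strain that its label gives as a complete deletion of dim-1. The other 17 samples hold other kinds of data and were not analysed here. Both RNA libraries came from the same strain, with no other allele named, grown with shaking for 16 h at 32 °C in Vogel's minimal medium with 1.5% sucrose. No wild-type RNA library and no culture with added thiamine was among the samples used, so neither gene was compared with wild type or with its level under thiamine. The RNA data are described as duplicate, with no word on separate cultures, and the spread between replicates may thus be technical.

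Thiamine is assembled from a pyrimidine and a thiazole that are made separately and then joined, and its diphosphate is the cofactor of enzymes such as pyruvate decarboxylase. In the yeast Saccharomyces cerevisiae the pyrimidine enzyme takes its atoms from pyridoxal phosphate and from a histidine of its own active site, the thiazole enzyme builds its product from NAD, glycine and a sulfur atom of its own chain, and each protein molecule is spent in a single round. Genes of both branches are repressed by thiamine in fungi, and the name nmt, for no message in thiamine, comes from the fission yeast gene. In N. crassa, nmt-1 is a textbook case of a riboswitch in a eukaryote, in which thiamine diphosphate binds the RNA and alters its splicing. Vogel's medium as commonly made contains biotin and no thiamine.

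Replicate 1 held 17364963 counts over genes (median 365 per gene) and replicate 2 held 13632746 (median 266), so 3 counts, the limit that a count of 0 allows, correspond to 0.173 and 0.220 CPM (counts-per-million of all gene counts). The targeted gene dim-1 had 258 counts (14.9 CPM) in replicate 1 and 171 (12.5 CPM) in replicate 2. Where in the locus these reads lay is not recorded by a count per gene. How they fit with a label of complete deletion was not tested, and the libraries are called by their label. The labels call the material germinated conidia. The 5 conidiation genes checked, con-6, con-8, con-10, con-13 and the hydrophobin gene eas, had a summed level of 225 CPM in replicate 1 and 151 in replicate 2, with con-13 at 2 and 0 counts. Most of that sum was con-8 (144 and 67.3 CPM), and the members went different ways, con-10 from 25.9 to 5.87 CPM, eas from 53.6 to 76.0 and con-6 from 1.21 to 2.05. The 4 genes of sexual development checked, mfa-1, ccg-4, fsd-1 and fmf-1, summed to 42.1 and 31.0 CPM, with fmf-1 at 0 counts in both libraries. Whether the state of the cultures had a part in the levels given below was not tested.

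By CPM, which is not corrected for length, both thiamine genes were among the 5 most abundant transcripts of each library. The pyrimidine gene nmt-1 had 172296 counts in replicate 1 and 214096 in replicate 2, or 9922 and 15705 CPM, a mean of 12813 ± 4089 CPM (SD, n = 2). The thiazole gene NCU06110 had 190203 and 209359 counts, or 10953 and 15357 CPM, a mean of 13155 ± 3114 (SD, n = 2). Both genes were higher in replicate 2 although that library was the smaller of the pair, and their ranges overlapped along most of their length. On this scale NCU06110 ranked 3 in replicate 1 and 4 in replicate 2, while nmt-1 ranked 5 and 3.

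Transcripts of the pair took up 2.09% of all gene counts in replicate 1 (exact binomial 95% interval 2.08 to 2.09) and 3.11% in replicate 2 (3.10 to 3.12), so about 1 count in 47.9 and 1 in 32.2 came from them. For nmt-1 alone the share was 0.992% (0.988 to 0.997) and 1.57% (1.56 to 1.58). For NCU06110 alone it was 1.10% (1.09 to 1.10) and 1.54% (1.53 to 1.54). These intervals cover counting error only, which at this depth was far below the difference between the libraries. The 10 highest genes of each library held 9.66% and 11.8% of its counts, and the pair made up 21.6% of that in replicate 1 and 26.3% in replicate 2.

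**Figure D1:**
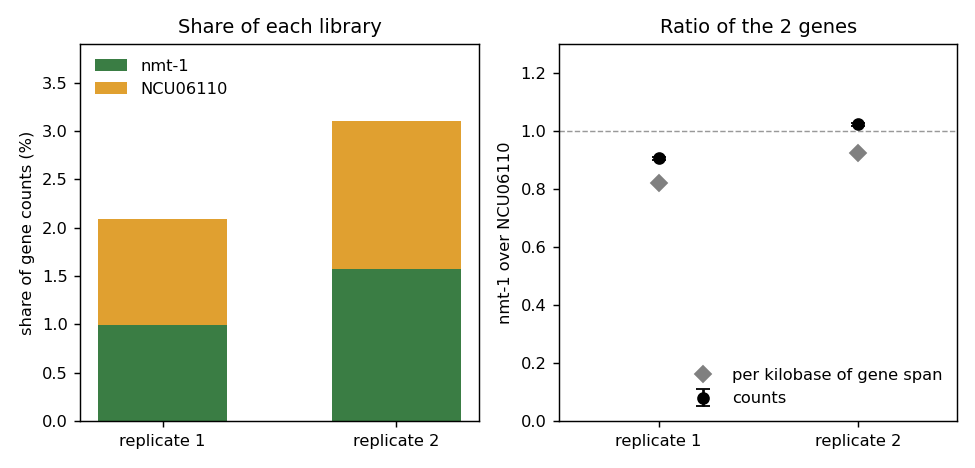
The left panel stacks the share of gene counts (%) of nmt-1 and NCU06110 in each library, and the right panel gives the ratio of nmt-1 to NCU06110 by counts (points with exact 95% counting intervals) and per kilobase of gene span (diamonds). The combined share was 2.09% in replicate 1 and 3.11% in replicate 2, while the ratio by counts was 0.906 and 1.02, to either side of the dashed line at 1.

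The 2 genes stayed close to each other in both libraries. The ratio of nmt-1 to NCU06110 counts was 0.906 in replicate 1 (exact 95% interval 0.900 to 0.912) and 1.02 in replicate 2 (1.02 to 1.03), a mean of 0.964 ± 0.0826 (SD, n = 2). NCU06110 was thus the higher of them in replicate 1 and nmt-1 in replicate 2, and the order of the pair is not settled by 2 libraries. Divided by gene span, the distance from gene start to gene end, the ratio was 0.820 and 0.926, with NCU06110 higher in both. The ratio needs no scaling of the libraries. It was 1.13-fold higher in replicate 2, and their combined share was 1.49-fold higher. Folds this alike are not particular to the pair. Of the other genes with a mean of at least 1000 CPM, 12 were nearer in fold to nmt-1 than NCU06110 was. For NCU06110, 24 were nearer than nmt-1 was.

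CPM takes no account of gene length, so levels were also divided by gene span. On that scale nmt-1 stood at 3353 CPM per kilobase in replicate 1 and 5307 in replicate 2, and NCU06110 at 4090 and 5735. The median over the 7775 detected genes, those with 10 or more counts in each library, was 13.3 in replicate 1 and 12.5 in replicate 2, so nmt-1 lay 253-fold and 424-fold above it and NCU06110 308-fold and 458-fold. Per kilobase NCU06110 ranked 5 in replicate 1 and 3 in replicate 2, and nmt-1 ranked 9 and 4. By mean level per kilobase they ranked 4 and 5 among genes with a span, which leaves out 1 abundant locus that the gene table does not hold. Span includes introns and untranslated parts, so these are not levels per length of mature transcript.

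The genes above the pair on this scale were the glycolytic gene gpd-1 (7246 ± 1236 CPM per kilobase, SD, n = 2), the pyruvate decarboxylase gene cfp (7034 ± 2295) and the clock-controlled gene ccg-16 (5493 ± 1153). Next below it were NCU05498 (4297 ± 197) and the alcohol dehydrogenase gene adh-1 (4250 ± 1137). The range of NCU06110 over the 2 libraries overlapped those of cfp, ccg-16, nmt-1, NCU05498 and adh-1, and the range of nmt-1 overlapped those of ccg-16, NCU06110, NCU05498, adh-1, NCU04502 (3953 ± 8.07) and cmt (3004 ± 712), out of the 10 genes highest per kilobase. Within those neighbours the order was not larger than the spread between replicates. Neither range reached that of gpd-1, and the range of the translation elongation factor gene tef-1 (2971 ± 22.7) lay below both.

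**Figure D2:**
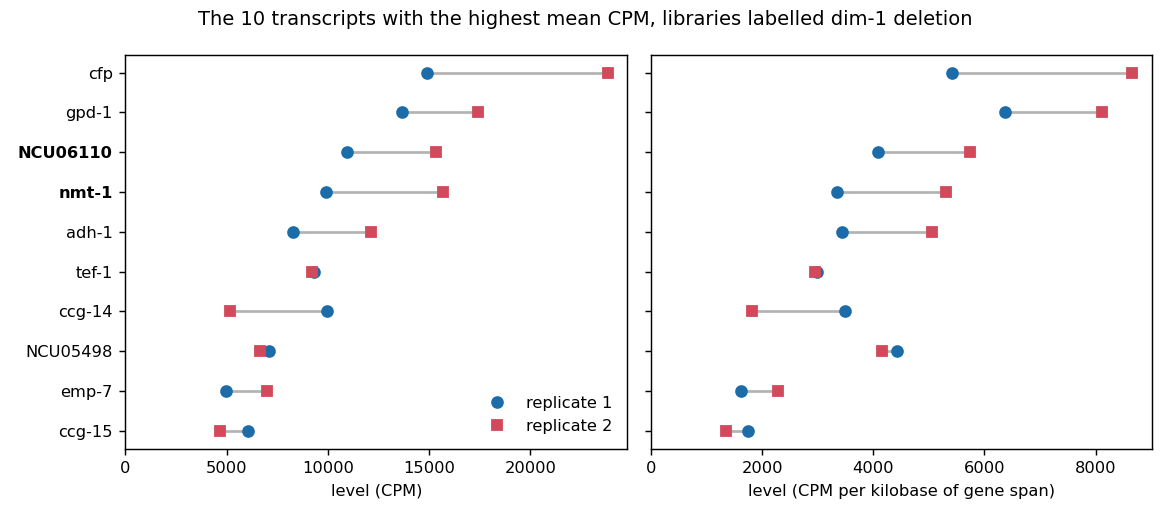
Each row is one of the 10 genes with the highest mean CPM, with circles for replicate 1 and squares for replicate 2, in CPM on the left and in CPM per kilobase of gene span on the right. The thiamine genes, in bold, lay at 9922 to 15705 CPM (nmt-1) and 10953 to 15357 CPM (NCU06110), and tef-1 held nearly the same level in both libraries.

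Between the libraries nmt-1 was 1.58-fold higher in replicate 2 (95% counting interval 1.57 to 1.59) and NCU06110 1.40-fold (1.39 to 1.41). Both were at least 25% higher in replicate 2, as were 17.1% of the 7775 detected genes, and neither reached 2-fold, which 0.823% did. At least 25% higher in replicate 1 were 27.7% of detected genes, and 5.12% reached 2-fold there. Of the 7775 genes, 277 had a higher fold than nmt-1 and 651 a higher fold than NCU06110, and the median fold was 0.966. Counting error does not cover the spread between cultures or library preparations, and with a single library on each side these folds have no replicate check.

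Among the 177 genes with a mean of at least 1000 CPM, where counting error is small, 18.1% were at least 25% higher in replicate 2 and 18.6% in replicate 1. There 8 genes had a higher fold than nmt-1 and 18 a higher fold than NCU06110. The coefficient of variation over the 2 libraries was 31.9% for nmt-1 and 23.7% for NCU06110, against a median of 9.02% over the 177 genes. A larger coefficient was found in 25 of these genes for nmt-1 and in 42 for NCU06110.

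**Figure D3:**
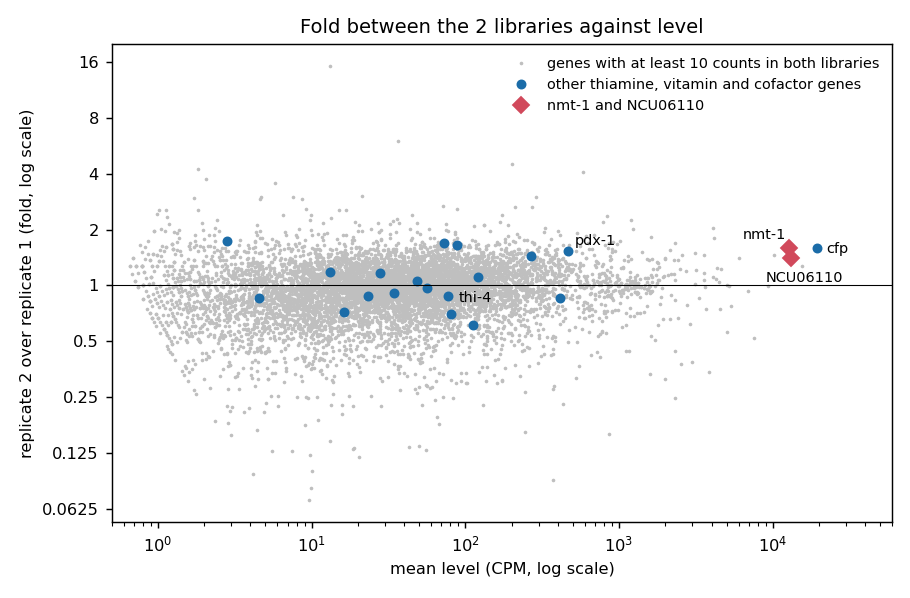
Each grey point is a detected gene (10 or more counts in each library), by its mean level (CPM, log scale) and its level in replicate 2 over replicate 1 (fold, log scale). The thiamine genes, as red diamonds, lay at 1.58-fold and 1.40-fold near the right edge, next to cfp at 1.60-fold, while thi-4 lay just below the line at 1-fold.

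The abundant genes whose fold was nearest to that of nmt-1 were cfp, the histone genes hH2B (NCU02435) and hH2A (NCU02437), NCU16673 and the phosphoglycerate kinase gene pgk (NCU07914). Their folds ran from 1.49 (NCU16673) to 1.69 (pgk), and their log2 folds differed from that of nmt-1 by 0.016 for cfp to 0.094 for pgk. Nearest to NCU06110 were cmt (NCU05561), a copper metallothionein gene, the enolase gene emp-7 (NCU10042), NCU08847 and the ATP synthase subunit genes atp-1 (NCU02514) and atp-2 (NCU05430), all within 0.016 on the log2 scale. The pair differed from each other by 0.17 on that scale, and 12 other abundant genes lay nearer to nmt-1 than NCU06110 did, and 24 nearer to NCU06110 than nmt-1 did. Likeness in a single fold between 2 libraries is a weak measure and says nothing of function or control.

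Other thiamine genes could be identified only by symbol, because the gene table gives no products. Besides nmt-1, only thi-4 (NCU07849) carried a thiamine symbol, so the enzymes that join the pyrimidine to the thiazole and add phosphates were not picked out. The gene thi-4 is a locus of its own, not NCU06110, and its product is not given there. It had 1421 counts in replicate 1 and 974 in replicate 2, or 81.8 and 71.4 CPM (76.6 ± 7.34, SD, n = 2). It was slightly lower in replicate 2 (0.873-fold, 95% counting interval 0.804 to 0.948), where the pair was higher. Such a fold is ordinary here. The median fold of detected genes was 0.966, and their median absolute log2 fold was 0.279, against a log2 fold of -0.196 for thi-4. Per kilobase of span its level was 25.4 and 22.2 CPM. On that scale nmt-1 was 132-fold and 239-fold above thi-4, and NCU06110 161-fold and 258-fold. The level of thi-4 itself was less than 2-fold above the median of detected genes, 13.3 and 12.5.

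Enzymes that use thiamine diphosphate were sought by the symbols cfp, pdc, tkt, pda, pdb, pdh and kgd, with ilv symbols left out. Only cfp (NCU02193), the pyruvate decarboxylase gene, was found. It had 258498 and 324688 counts, or 14886 CPM in replicate 1 and 23817 in replicate 2, and was 1.60-fold higher in replicate 2 (95% counting interval 1.59 to 1.61). Per kilobase of span, nmt-1 stood at 0.620 of the level of cfp in replicate 1 and 0.613 in replicate 2. For NCU06110 the same ratio was 0.756 and 0.662. The small move of the nmt-1 ratio only restates that the folds of nmt-1 and cfp were alike, 1.58 and 1.60, with a single library on each side. The histone genes hH2B and hH2A, at 1.56-fold and 1.52-fold, came next among abundant genes. Their log2 folds differed from that of nmt-1 by 0.023 and 0.055, against 0.016 for cfp. The ratio of NCU06110 to cfp was lower in replicate 2.

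The next list held 17 other vitamin and cofactor genes, taken from the symbols of known Neurospora loci for pyridoxine, nicotinamide, riboflavin, pantothenate, inositol and biotin. Their highest mean CPM was that of pdx-1, given below beside its level per kilobase. All 17 were detected, and their median was 56.7 CPM, against 34.2 over the 7775 genes. The highest were pdx-1 (NCU06550), of pyridoxine synthesis, with 366 CPM in replicate 1 and 562 in replicate 2, and inl (NCU06666), the inositol phosphate synthase gene, with 446 and 382. The lowest were the pantothenate genes pan-3 (NCU07836), with 36 and 49 counts (2.83 ± 1.08 CPM, SD, n = 2), and pan-2 (NCU10048), with 85 and 57 (4.54 ± 0.505). Per kilobase of span nmt-1 was 13.7-fold above pdx-1 in replicate 1 and 14.1-fold in replicate 2, and NCU06110 16.7-fold and 15.3-fold.

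Of these 17 genes, 5 were at least 25% higher in replicate 2 and 3 in replicate 1, against 17.1% and 27.7% of detected genes. None reached 2-fold, which only 0.823% and 5.12% of detected genes did in those directions. The median fold of the list was 1.06, against 0.966 over detected genes. The 5 were pdx-1 (1.54-fold), pdx-2 (NCU06549; 1.69-fold), pdx-4 (NCU08269; 1.45-fold), bio-1 (NCU03979; 1.66-fold) and pan-3 (1.73-fold, 95% counting interval 1.10 to 2.74). The 3 in the other direction were nic-5 (NCU04019), rib-3 (NCU01449) and nic-7 (NCU03963), at 0.615, 0.701 and 0.716 of their level in replicate 1.

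**Figure D4:**
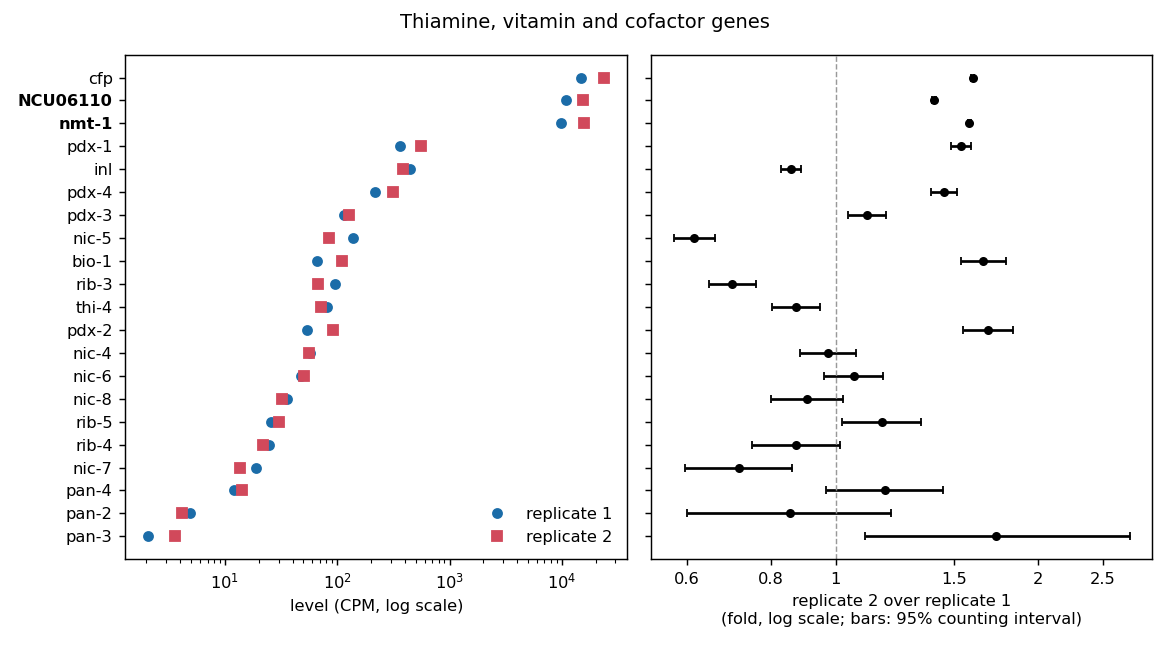
Rows are the thiamine pair in bold, thi-4, cfp and the 17 other vitamin and cofactor genes, ordered by mean level. The left panel gives CPM in each library on a log scale, and the right panel the fold of replicate 2 over replicate 1 with its 95% counting interval. The pair, chosen for its high level, and cfp stood apart from all the others in CPM. The next by mean was pdx-1 at 366 and 562 CPM, although inl was above it in replicate 1 at 446 CPM.

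Genes of histidine, pyridoxine, nicotinamide, serine and glycine synthesis were also looked at by symbol, for their link to the yeast enzymes. This list held 15 genes with the symbols his, pdx, nic, ser and for, and shared its pyridoxine and nicotinamide members with the previous list. The histidine used is part of the pyrimidine enzyme's own chain, so the histidine genes do not supply it with a free substrate. The 4 pyridoxine genes had folds from 1.11 (pdx-3, NCU03068) to 1.69 (pdx-2), and their summed level was 752 CPM in replicate 1 and 1097 in replicate 2. The genes pdx-1 and pdx-2 are known in N. crassa for the synthesis of vitamin B6, whose phosphate is the source of the pyrimidine. The 4 histidine genes ran from 0.868-fold (his-3, NCU03139) to 1.24-fold (his-6, NCU07156), with summed levels of 484 and 462 CPM. The 5 nicotinamide genes ran from 0.615-fold (nic-5) to 1.06-fold (nic-6, NCU00649), with 298 and 237 CPM in sum. The gene for (NCU02274), which encodes the serine hydroxymethyltransferase that yields glycine, was at 0.758-fold with 395 and 299 CPM. Serine gene ser-7 (NCU01429) was at 1.04-fold, with 264 CPM in replicate 1 and 274 in replicate 2. The lowest of the list besides nic-7 was his-7 (NCU00150), with 24.2 and 23.9 CPM.

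Of the 15 genes, 3 were at least 25% higher in replicate 2 and 3 in replicate 1, against 17.1% and 27.7% of detected genes. None reached 2-fold, which only 0.823% and 5.12% of detected genes did in those directions. The median fold was 1.03, against 0.966 over detected genes. The members higher in replicate 2 by that measure were the pyridoxine genes pdx-1, pdx-2 and pdx-4, and those higher in replicate 1 were for, nic-5 and nic-7.

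The genes beside the pair had far fewer counts than the pair, given here in counts and CPM without correction for length. Next to nmt-1 in the gene table, NCU09344 had 5 counts in each library and NCU16593 had 2 and 5. The loci one step further out were NCU09343, with 219 and 187 counts (13.2 ± 0.782 CPM, SD, n = 2), and NCU16594, with 1 and 3. Next to NCU06110 lay NCU06111, with 489 and 307 counts (25.3 ± 3.99 CPM), and NCU06109, with 7 and 8. The loci beyond them, NCU06112 and NCU06108, had 6.95 ± 0.185 and 60.7 ± 5.82 CPM. By mean level only NCU06108, with 983 and 884 counts, lay above the median of detected genes, 34.2 CPM. Because the pair was chosen for its high level, lower neighbours follow from that choice and are no finding about the loci beside it.

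**Figure D5:**
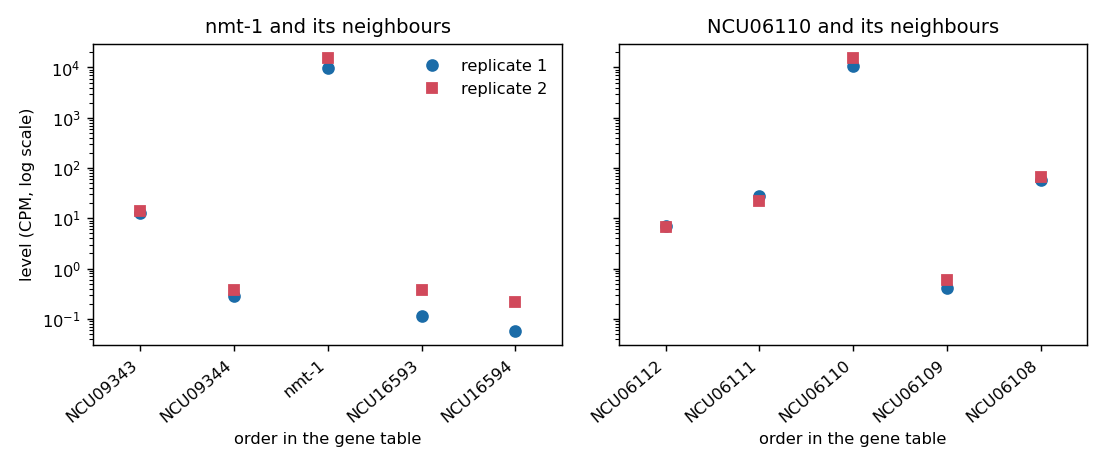
Levels in CPM (log scale) of nmt-1 and NCU06110 and of the 2 loci on each side of them in the gene table, with circles for replicate 1 and squares for replicate 2. The lowest value of a thiamine gene was 9922 CPM (nmt-1, replicate 1), and the highest value of a neighbour was 64.8 CPM (NCU06108, replicate 2).

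The span of NCU06110 overlaps that of NCU06111 in the gene table, whereas nmt-1 overlaps neither of its neighbours. Without a stated strand setting, reads in the shared stretch cannot be assigned with certainty, and the low count of NCU06111 is the more uncertain of the pair. The deposited row for reads overlapping several genes held 14071 reads in replicate 1 and 11581 in replicate 2 over the whole genome. Even if all of them belonged to NCU06110, its count would be 7.40% higher in replicate 1 and 5.53% higher in replicate 2. Reads aligned to several places, 658695 in replicate 1 and 372158 in replicate 2 over the whole genome, are not part of this bound.

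Both genes have several transcript models in the gene table, 3 for nmt-1 and 4 for NCU06110. Of the 9729 loci matched to the table, 131 (1.35%) have at least 3 models and 23 (0.236%) at least 4. Among the 176 of these loci with a mean of at least 1000 CPM, 4 have at least 3 models, and the thiamine pair are 2 of them. The counts are summed per gene, so the share of each transcript model in these libraries cannot be given.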

How the data were processed

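The deposited values are raw counts per gene, whole numbers with no normalization, from 2 poly-A RNA libraries. Per the labels' protocols, the RNA was treated with DNase and a stranded kit was used. The submitters' processing notes name HTSeq, TopHat, SAMtools, DESeq, Bowtie and Bowtie2 for the series, without roles or versions. For the counting, the sources used here name no genome build, no annotation and no strand setting.

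Of all reads listed, 6.72% (replicate 1) and 6.64% (replicate 2) lay outside genes and 3.41% and 2.48% aligned to several places; these rows stayed out of library totals. CPM, folds and exact intervals (95%, counting error only) were computed in Python 3.11.15 with pandas 2.3.3 and scipy 1.17.1, and the fold script was tested on simulated data. TMM (edgeR 4.0.16) and size factors (DESeq2 1.42.0, R 4.3.3) served as alternative scalings. Symbols, gene order, gene span and transcript models came from a RefSeq table of assembly NC12, which held 9729 of 9730 loci, 1118 with a symbol. No coordinates from it are given.

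With 2 libraries of a single group, no test was made. The genes and lists were chosen with earlier results of these data known. Genes named are the pair, thiamine and cofactor genes by symbol (of longer lists the highest 2, the lowest 2 and those past a fold limit), the most abundant genes, the 2 neighbours on each side, and the 5 genes with at least 1000 CPM nearest in fold to each. Genes named for being at least 25% higher in a library, the symbol families described and genes high per kilobase were named after their values were seen.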

Additional observations from a re-analysis of the deposited data

How the results depend on the processing

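Another scaling of the libraries moved the fold of nmt-1 in replicate 2 over replicate 1 from 1.58 to 1.65 with TMM, 1.65 with DESeq2 size factors, 1.62 without the 10 most abundant genes in the total and 1.60 with the reads outside genes in it. For NCU06110 it moved from 1.40 to 1.46, 1.46, 1.44 and 1.42. These shifts exceed counting error, apply to every gene alike and keep the direction, and the median log2 fold of all genes moved by at most 0.057. Mean levels and the combined share moved by less than the spread between replicates under each other scaling, as did both genes' counts with all reads of several genes added, a bound chosen after seeing the data. The ratio of the pair is the same under every scaling, and leaving out a replicate, which with 2 libraries cannot move a mean by as much as the SD, says nothing of stability. The level of thi-4 was 85.7 and 69.2 CPM with the last pair of totals. Per kilobase of span NCU06110 ranked 4 instead of 3 by mean level. With TMM, 4 instead of 3 genes of the list with symbols his, pdx, nic, ser and for were at least 25% higher in replicate 2. The share of detected genes so called went from 17.1% to 20.8%, and in replicate 1 from 27.7% to 24.4%. With the count minimum lowered to 1 in each library, 19.0% and 29.7% of genes were at least 25% higher in replicates 2 and 1. No paired analysis was possible because both libraries belong to a single group. With 2 libraries and no other condition, depth was not the limit for the pair, but it was for neighbours with under 10 counts.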
